A study of Mus musculus with 152 samples.

Results

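The genes described here are 37 interferon-response genes of mouse liver, out of 54532 genes in the deposited tables. They were taken by name from a list of interferon-stimulated genes and GTPases, and all 37 were found in the tables and passed the filter on low values in every week. By the promoter element and inducer with which each gene is usually linked, 26 were placed in a type I-like class and 11 in a gamma-like class. The gamma-like class holds 5 guanylate-binding proteins (Gbp2, Gbp3, Gbp5, Gbp6 and Gbp7), 5 immunity-related GTPases (Igtp, Irgm1, Irgm2, Iigp1 and Ifi47) and the transcription factor Irf1. Many type I-like genes also answer interferon gamma, so the classes are a convention and not a measured property.

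The RNA came from whole livers of C57BL/6J mice, an inbred strain, with no engineered allele named. The animals ate LIDPAD, which brings on the fatty liver disease not due to alcohol, or a purified diet as its control, from 8 weeks of age on. Both diets were sampled after 1, 4, 8, 12, 16, 32 and 48 weeks, which makes 14 groups compared in 7 pairs. Blocks of 4 among the 152 deposited samples differed by no more than the sampling noise of read pairs. Each block was counted as 1 library, 38 in all. The first 4 sampling times have 2 libraries per diet and week 16 has 3. Week 32 has 4 control libraries with 5 LIDPAD, and week 48 has 3 with 4. No label ties a library to an animal of its own, so the p-values reflect library-to-library spread that could be technical. In bulk liver, fewer cells of a type and less RNA per cell cannot be told apart.

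Depth was 10.9 to 53.8 M reads per library (M, 1000000). Hepatocyte markers such as albumin were abundant in every library, and their summed level over 6 markers, most of it albumin, moved with diet. Not every marker fell. At week 16 the highest Cyp3a11 value was 552 FPM in control and 2602 FPM on LIDPAD, while those of Alb, Ttr, Apoa1, Serpina1c and Cyp2e1 were lower on LIDPAD. The sum was 71185 to 85407 FPM in control and 38595 to 47144 FPM in LIDPAD libraries at week 16. At week 48 it was 64930 to 83325 and 29312 to 41050 FPM. At week 32 the controls had 77929 to 95906 FPM and 4 of the 5 LIDPAD libraries 35249 to 41510 FPM, while LIDPAD library 1 had 105180 FPM. Week 48 control library 3 stood apart from the other controls of its week (chi-square per gene 45.6 and 43.0, against a median of 10.8 over 39 pairs of libraries of the same group), and so did week 4 control library 2 (37.7 against its partner). Both had more of 7 recruited macrophage markers than other controls, 203 and 124 FPM summed, where the other 16 control libraries had 26.4 to 73.8 FPM. Week 32 LIDPAD library 1 held 169 FPM of plasma cell and 990 FPM of erythroid markers, against 4.61 to 7.15 and 171 to 206 FPM in the other LIDPAD libraries of that week. Counts and correlations that rest on these libraries are given with and without them.

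Interferons are secreted proteins that put cells into an antiviral state. Type I interferons signal through the receptor pair Ifnar1 and Ifnar2 to a complex that holds STAT2 and IRF9 and binds the interferon-stimulated response element (ISRE) of genes such as Ifit3 and Isg15. Interferon gamma, made by T and natural killer cells, signals through Ifngr1 and Ifngr2 and acts on the gamma-activated site (GAS) of genes such as Irf1. The guanylate-binding and immunity-related GTPases it induces act on membranes that enclose intracellular microbes. In liver, hepatocytes, endothelial cells and macrophages can all respond.

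Promoter windows, 250 bases before to 50 bases after a gene's start (RefSeq, GRCm38.p6), were held for 25 of the 37 genes, 16 type I-like and 9 gamma-like. An ISRE core, which is TTTC repeated after any 2 bases, searched on both strands, was present in 16 of the 25 (64.0%), against 3.99% of all 27025 genes with a window. A GAS, TTCNNNGAA, which reads the same on both strands, was present in 9 of 25 (36.0%), against 9.55% of all genes. The 2 motifs can overlap, and 6 of the 25 genes had both. By class, 9 of 16 type I-like and 7 of 9 gamma-like genes had the ISRE core, and 4 of 16 and 5 of 9 had the GAS. A match is a description of letters and not a shown binding site. The stretches below are of genes that carry the results that follow. They are 2 close copies, members that rose, and the textbook ISRE gene Isg15, which was called in no week. Also shown are a GTPase pair and the gene used above as the example of a GAS. Of the pair, Igtp was called higher at week 8 and Irgm2 lower at week 16. As deposited, both had a log2 change above 0 at week 8 and below 0 at week 16. Each is printed 5′ to 3′ on the gene's strand, and capitals mark the ISRE core or the GAS, with overlapping matches run together.
Ifit3: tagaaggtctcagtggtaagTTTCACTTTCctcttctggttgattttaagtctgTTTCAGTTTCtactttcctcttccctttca
Ifit3b: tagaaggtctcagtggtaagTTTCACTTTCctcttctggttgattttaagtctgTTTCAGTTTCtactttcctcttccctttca
Isg15: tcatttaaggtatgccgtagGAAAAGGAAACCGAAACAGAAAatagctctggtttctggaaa
Bst2: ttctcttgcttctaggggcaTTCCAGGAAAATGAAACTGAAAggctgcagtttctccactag
Trim30a: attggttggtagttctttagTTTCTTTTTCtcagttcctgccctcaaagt
Gbp2: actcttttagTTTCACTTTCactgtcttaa
Gbp3: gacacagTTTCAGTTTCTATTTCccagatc
Igtp: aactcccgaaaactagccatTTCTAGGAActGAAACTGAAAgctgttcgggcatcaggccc
Irgm2: ccatTTCCAGGAActGAAACTGAAAgctg
Irf1: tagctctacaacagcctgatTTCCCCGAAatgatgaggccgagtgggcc

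On GRCm38.p6 these are Ifit3 at chr19:34583353-34583436 (plus strand), Ifit3b at chr19:34607749-34607832 (plus), Isg15 at chr4:156200855-156200916 (minus) and Bst2 at chr8:71537567-71537628 (minus). Trim30a lies at chr7:104465200-104465249 (minus), Gbp2 at chr3:142620594-142620623 (plus), Gbp3 at chr3:142559992-142560021 (plus) and Irf1 at chr11:53769904-53769952 (plus). The Igtp stretch is chr11:58199491-58199551 and the Irgm2 stretch chr11:58214898-58214926, both on the plus strand of the same locus. Ifit3 and Ifit3b have the same stretch, 84 bases long and letter for letter alike. All lie before the RefSeq start. That of Irgm2 falls inside the longer GENCODE gene, and that of Gbp2 runs across the GENCODE start. Isg15 has 3 overlapping ISRE cores and Gbp2, which was called in 6 weeks, has 1. Oasl2, Irf7, Irf9, Ifi44, Xaf1 and Ifi47 had neither motif in this window, and 4 of them are among the 10 genes whose diet effect differed between weeks. Windows of Oas2, Usp18, Ifi27l2a, Ifi27l2b, Zbp1, Mx1, Mx2, Rtp4, Parp14, Dhx58, Gbp6 and Iigp1 are not shown.

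Many of the genes are neighbours. The 4 Ifit genes lie together on chromosome 19, Gbp2, Gbp3, Gbp5 and Gbp7 on chromosome 3, Ifi27l2a and Ifi27l2b on chromosome 12 and Mx1 and Mx2 on chromosome 16. Chromosome 11 holds 8 members, among them Igtp, Irgm1, Irgm2, Ifi47 and Irf1. Some are close copies whose reads the counting could have split: 51.2% of Ifit3's exon sequence, in words of 50 bases, is shared with Ifit3b, 57.6% of Oas1a with Oas1g, 65.0% of Gbp6 with the overlapping model Gm43302, and 11.8% of Igtp with Irgm2. Values of these genes are uncertain for that reason. Opposite-strand neighbours overlap 16.8% of the exons of Ifi35, and the strand setting of the counting is not given in the sources used here.

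Levels of different genes were compared as FPM (reads per 1000000, scaled by size factors) per kilobase of exon. In control livers Bst2, which encodes tetherin, a membrane protein that holds budding virus on the cell, had the highest level (median 58.3 FPM per kilobase, 41.1 to 108 over 18 libraries). Iigp1 followed at 42.4, then Irgm2 at 9.92 and Igtp at 8.79, so 3 of the 4 most abundant genes of the set in control liver were immunity-related GTPases. Ifi27l2b, a small membrane protein of the Ifi27 family, ranked 13 in control livers at 4.38 FPM per kilobase and 2 in LIDPAD livers at 38.4 (1.94 to 61.5 over 20 libraries). Ifi27l2a rose in rank from 15 to 4, from 3.76 to 11.9 FPM per kilobase. Gbp5 was the lowest in both diets, at 0.228 and 0.397. The ranges of neighbours in this order overlapped, Bst2 and Iigp1 included, but in control livers Bst2 and Iigp1 lay above every library of every other gene except week 48 control library 3 for Ifi27l2b.

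More genes of the set were called at week 32, the week with the most libraries, than in any other week, and Gbp2 and Gbp6 were called already at week 1. A gene was called when its limma adjusted p, over all genes tested in that week, was under 0.05. At week 1, 2 of the 37 genes were higher on LIDPAD and 0 lower (all genes: 0.726% higher, 1.27% lower), and at week 4 none was called (0.121% and 0.166%). At week 8 there were 8 higher and 0 lower (3.85% and 1.75%, 5.6% in all), at week 12 6 and 1 (8.99% and 6.25%), and at week 16 12 and 4 (16.3% and 12%). Week 32 had 23 higher and 1 lower (18% and 8.82%), and week 48 had 2 and 0 (6.54% and 3.34%, 9.87% in all). Since the weeks have 2 to 5 libraries per diet, their counts of calls do not give a course over time. The share of reads from mitochondrial rRNA at week 32 was 18.3 to 23.03% in control and 20.9 to 30.2% in LIDPAD libraries, 4 of 5 of them above all controls. Its part in the result was not tested. In all, 26 genes were called higher in at least 1 week, 4 only lower (Stat2, Mx2, Irgm2 and Iigp1), and 7 in no week (Ifit1, Isg15, Irf9, Ifi35, Dhx58, Gbp7 and Irgm1). The share of all genes called in at least 1 week was not counted. At weeks 12, 16 and 32 the share of the set called lower was below that of all genes.

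**Figure D1:**
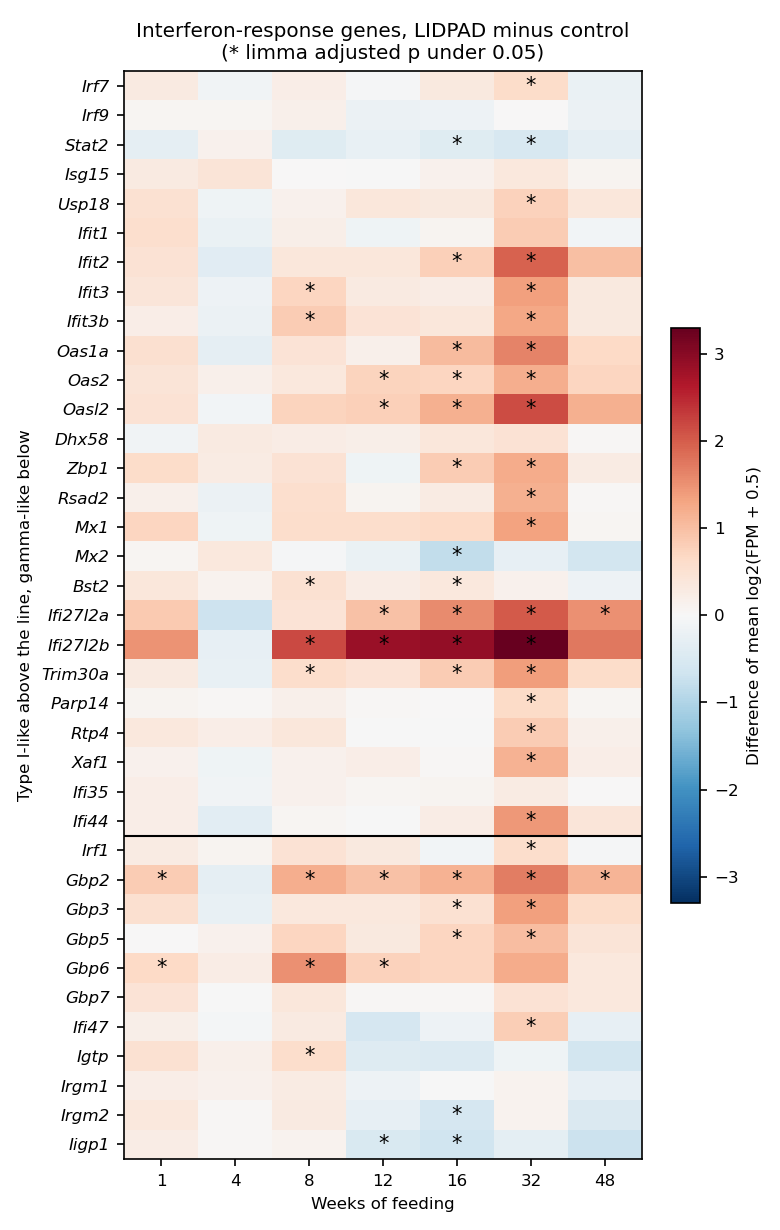
LIDPAD minus control difference of mean log2(FPM + 0.5) for each of the 37 genes (rows) in each week of feeding (columns), red higher and blue lower on LIDPAD; asterisks mark genes called by limma. Ifi27l2b has the deepest red from week 8 to week 32, reaching 3.28, Gbp2 is called in 6 of 7 weeks, and the bottom rows, Igtp to Iigp1, turn blue at weeks 12, 16 and 48 (as deposited, before rescaling).

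Week 4 has a count of 0 from limma, and 1 member had an unadjusted p under 0.05 while edgeR and DESeq2 also called 0. At week 1, both LIDPAD libraries lay above both control libraries for 29 of the 37 genes, beside 24.2% of all genes tested, and at week 8 for 30 of 37, beside 28.3%. At week 4 this was so for 5 of 37, beside 21.3%, and at weeks 12, 16, 32 and 48 for 18, 12, 21 and 4 of 37, beside 29.3%, 23.5%, 17% and 14.1%. All LIDPAD libraries lay below all controls for 1, 7, 1, 5, 4, 1 and 2 of the 37 genes from week 1 to week 48, beside 24.4%, 20.9%, 27.1%, 28.2%, 19.7%, 8.8% and 10.7% of all genes. Read against these shares, the higher counts of weeks 1, 8, 12 and 32 were above background, that of week 16 was nearer to it, and those of weeks 4 and 48 were below it. The week 4 controls differed from each other: control library 2 had 15.6 FPM of Ifi27l2b, 7.14 of Oasl2 and 9.16 of Gbp2, above both LIDPAD libraries, and control library 1 had 1.99, 3.03 and 4.24 FPM. Without control library 2, still 0 members were called at week 4.

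Most calls of weeks 1, 8, 12 and 48 were lost when some single library was left out. With each library left out in turn, 0 of the 2 calls of week 1 held throughout, 1 of 8 at week 8 (Gbp6), 2 of 7 at week 12 (Ifi27l2b and Gbp2), 8 of 16 at week 16, 24 of 24 at week 32 and 0 of 2 at week 48. At weeks 1 to 12 such a fit leaves 1 library in a diet, which is assumed to vary like the pair of the other diet, so its counts say little about stability. Week 1 had 0 calls without either control library and 11 or 9 without LIDPAD library 1 or 2. Week 8 had 1 call without either LIDPAD library, and week 12 had 12 without control library 1, 11 without control library 2 and 2 without LIDPAD library 2. Week 32 had 26 without LIDPAD library 1, the library with plasma cell and erythroid markers, and 25 without LIDPAD library 2, the one with the most macrophage markers. Leaving out LIDPAD library 4 or 5 of week 32 kept the other of that close pair.

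**Figure D2:**
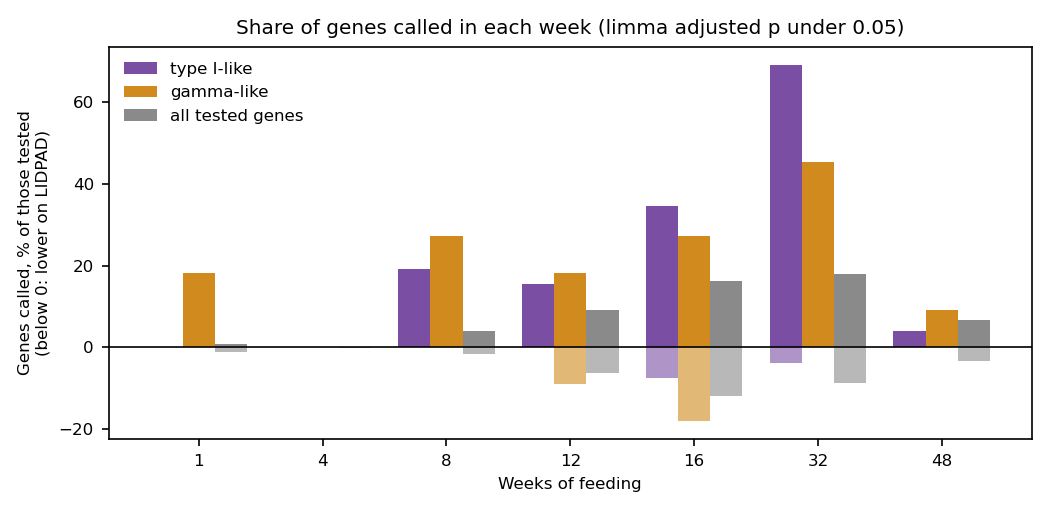
Percent of tested genes called in each week, in the type I-like class (26 genes), the gamma-like class (11 genes) and among all tested genes; bars above 0 are genes higher on LIDPAD and bars below 0 genes lower. The type I-like bar is tallest at week 32 (18 of 26 genes), and no bar of either class is visible at week 4.

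Among the transcription factors, Stat2, the subunit specific to the type I complex, was lower on LIDPAD at weeks 16 and 32, when 9 and 18 of the 26 type I-like genes were higher. At week 16 Stat2 had 40.7, 36.96 and 39.7 FPM in control and 26.8, 30.5 and 31.4 FPM in LIDPAD libraries, with no overlap. The log2 change was -0.40 ± 0.10 (SE), limma adjusted p = 0.0123. At week 32 the controls had 48.3, 44.6, 45.7 and 36.2 FPM and the LIDPAD libraries 30.7, 25.2, 33.9, 28.4 and 31.1 FPM, again with no overlap (log2 change -0.54 ± 0.13, adjusted p = 0.00910). Stat2 was below control on average in every week except week 4, but was called only at weeks 16 and 32. Both calls were lost when each library was rescaled to the same total, -0.20 (adjusted p = 0.148) and -0.24 (adjusted p = 0.362).

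That rescaling moved the median of all genes by 0.11, 0.19, 0.20, 0.29 and 0.26 on the log2 scale at weeks 8, 12, 16, 32 and 48. Higher and lower calls of the set became 9 and 0 at week 12, 16 and 2 at week 16, 28 and 0 at week 32 and 5 and 0 at week 48. Under the same rescaling 13.8%, 28.3%, 28.4% and 19.3% of all genes were higher in these weeks and 2.89%, 5.74%, 2.53% and 1.27% lower, so the 5 higher genes of week 48 lay below the background share. Stat2 stayed below the median of all genes, but rescaling moves both nearly alike, so this could not have come out otherwise. Mx2 and Iigp1 kept their calls at week 16, as given with their values.

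Irf7, which drives further interferon production, rose at week 32 from 14.1, 16.5, 20.1 and 16.3 FPM in control to 25.1, 31.7, 29.2, 21.3 and 22.1 FPM (log2 change 0.61 ± 0.15, adjusted p = 0.0129), the lowest LIDPAD library just above the highest control. Irf1, the factor induced through a GAS, rose in the same week from 14.7 ± 2.67 to 21.9 ± 1.44 FPM (SD, n = 4 and 5; log2 change 0.57 ± 0.14, adjusted p = 0.0110). Neither was called in another week, and at week 48 their log2 changes were -0.21 and -0.03. Irf9, the DNA-binding partner of Stat2, lay between -0.20 and 0.18 in all 7 weeks and was never called.

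In the ISG15 system, the modifier and the enzyme that removes it differed in whether they passed the test. Isg15, a ubiquitin-like modifier, was called in no week, with log2 changes of -0.02 to 0.42. Its level was low, 1.09 to 3.67 FPM over all 38 libraries. Usp18, the protease that removes Isg15 and restrains the type I receptor, rose at week 32. Control libraries had 6.41, 4.71, 6.01 and 6.62 FPM and LIDPAD libraries 8.16, 11.4, 10.0, 11.1 and 11.1 FPM, without overlap (log2 change 0.75 ± 0.15, adjusted p = 0.00440).

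The Ifit proteins bind viral RNA. Ifit2 rose at week 16 from 7.65, 4.81 and 4.80 to 10.1, 7.74 and 13.2 FPM (log2 change 0.79 ± 0.22, adjusted p = 0.0191), with its lowest LIDPAD library only just above the highest control. At week 32 it rose further apart, from 3.59, 2.72, 3.44 and 4.72 to 26.9, 8.71, 16.8, 13.5 and 14.3 FPM (log2 change 1.94 ± 0.27, adjusted p = 0.000594), with no overlap. Ifit3 and its copy Ifit3b rose at week 8 (log2 changes 0.71 ± 0.13 and 0.85 ± 0.15, adjusted p = 0.0329 and 0.0284) and at week 32 (1.34 ± 0.32 and 1.28 ± 0.32, adjusted p = 0.00984 and 0.0116). At week 32 their groups overlapped, since control library 4 had 12.1 FPM of Ifit3 and LIDPAD library 2 had 10.3 FPM. Ifit1 was called in no week, and at week 32 went from 5.69 ± 3.69 to 9.68 ± 3.44 FPM (adjusted p = 0.160).

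Of the oligoadenylate synthetase group, whose enzymes activate RNase L on sensing double-stranded RNA, all 3 members rose from week 12 or 16 to week 32. Oasl2, a synthetase-like protein, had 3.52 and 3.99 FPM in control and 6.64 and 6.95 FPM in LIDPAD libraries at week 12 (log2 change 0.78 ± 0.16, adjusted p = 0.0131). At week 16 it had 6.43, 2.79 and 3.31 FPM in control and 8.33, 8.21 and 12.4 FPM on LIDPAD (1.17 ± 0.26, adjusted p = 0.00677). At week 32 the controls had 2.54, 1.46, 3.35 and 2.96 FPM and the LIDPAD libraries 19.3, 10.3, 20.3, 8.93 and 9.06 FPM (2.15 ± 0.30, adjusted p = 0.000551). The groups of Oasl2 were apart in each of these weeks, and the widest spread among LIDPAD libraries was at week 32, where libraries 1 and 3 were the high ones. Oas1a rose at weeks 16 and 32 (log2 changes 1.05 ± 0.20 and 1.64 ± 0.22, adjusted p = 0.00238 and 0.000432). Oas2 rose at weeks 12, 16 and 32, by 0.74, 0.70 and 1.19 on the log2 scale (adjusted p = 0.0245, 0.0193 and 0.00184).

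**Figure D3:**
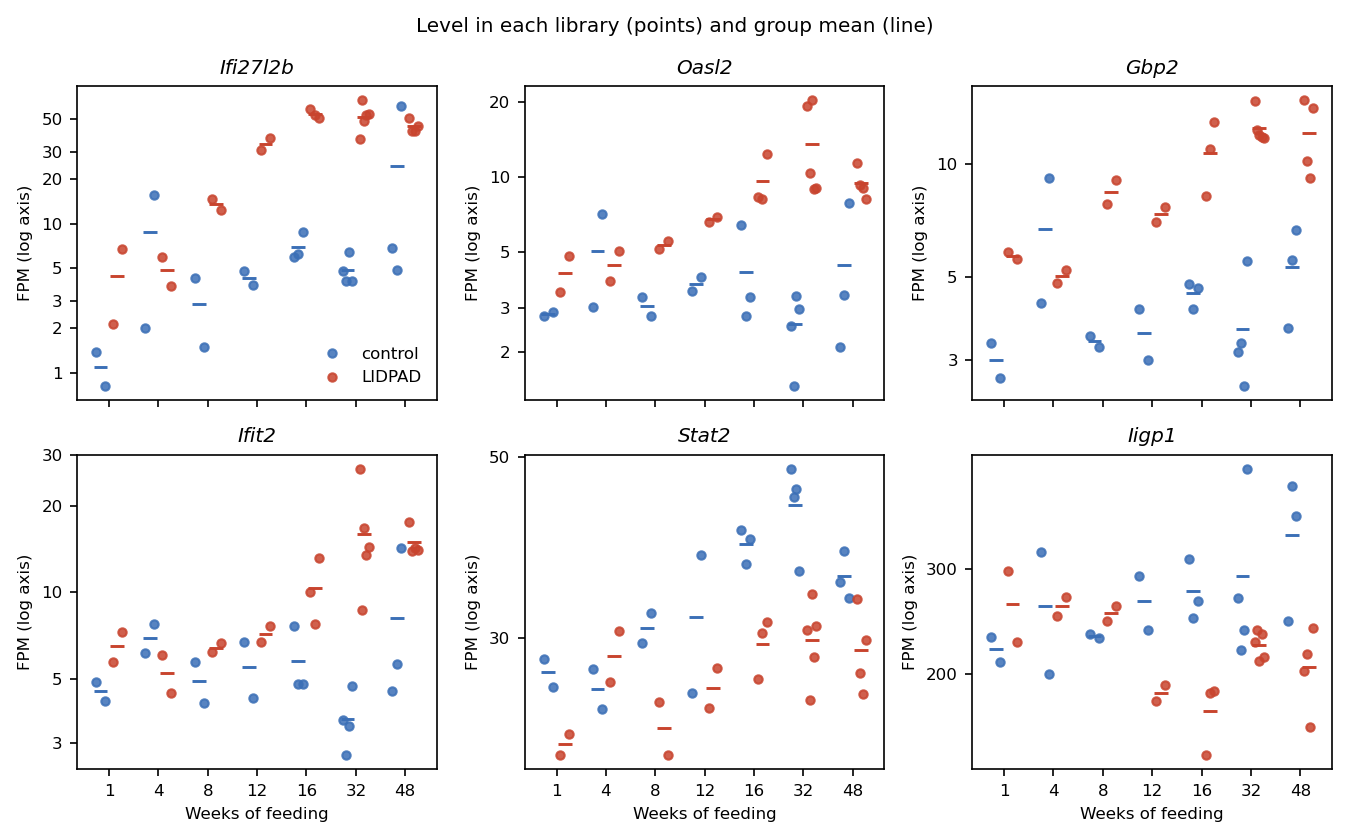
FPM (log axis) of 6 genes in each library (points) by week of feeding, control in blue and LIDPAD in red, with the group mean as a short line. The LIDPAD points of Ifi27l2b lie above the controls from week 8 on except for week 48 control library 3 at 61.3 FPM, and those of Stat2 and Iigp1 lie below the controls at week 16.

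Other antiviral effectors and sensors rose mainly at week 32. Rsad2, or viperin, which makes a nucleotide that stops viral RNA synthesis, had 5.19, 4.75, 4.76 and 11.7 FPM in control and 17.6, 12.0, 17.5, 13.2 and 12.3 FPM in LIDPAD libraries (log2 change 1.16 ± 0.26, adjusted p = 0.00664). Control library 4 lay just below the lowest LIDPAD library. Zbp1, a sensor of Z-form nucleic acid, rose at week 16 from 2.80, 1.72 and 2.61 to 4.33, 4.09 and 5.29 FPM (0.83 ± 0.20, adjusted p = 0.00977) and at week 32 from 2.43 ± 0.980 to 6.25 ± 1.47 FPM (1.23 ± 0.24, adjusted p = 0.00370). Dhx58, a relative of RIG-I, was called in no week (0.47 ± 0.20 at week 32, adjusted p = 0.105).

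The dynamin-like GTPases Mx1 and Mx2 went different ways. Mx1, of which C57BL/6 mice are known to carry a defective allele, rose at week 32 from 1.06, 0.700, 1.57 and 1.88 to 2.23, 4.50, 7.71, 3.14 and 3.42 FPM (1.33 ± 0.32, adjusted p = 0.0106). Mx2 was lower at week 16, with 7.71, 5.26 and 4.94 FPM in control and 2.63, 3.67 and 3.20 FPM in LIDPAD libraries, without overlap (-0.80 ± 0.20, adjusted p = 0.0110; after rescaling -0.62, adjusted p = 0.0267). In no other week was Mx2 called, and its log2 change at week 48 was -0.60.

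Of the 2 Ifi27-like genes, Ifi27l2b had the largest log2 change of the set in every week except week 4. Ifi27l2b had 1.37 and 0.811 FPM in control and 2.12 and 6.79 FPM in LIDPAD libraries at week 1, which was not called (log2 change 1.48). At week 8 it went from 4.32 and 1.48 to 14.6 and 12.3 FPM (2.17 ± 0.38, adjusted p = 0.0279), and at week 12 from 4.78 and 3.85 to 31.2 and 37.4 FPM (2.86 ± 0.16, adjusted p = 1.67e-05). In each of these 3 weeks both LIDPAD libraries lay above both controls.

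At week 16 Ifi27l2b had 5.98, 6.21 and 8.75 FPM in control and 58.6, 53.7 and 51.4 FPM in LIDPAD libraries (2.90 ± 0.14, adjusted p = 5.54e-07). At week 32 the controls had 4.81, 4.14, 6.45 and 4.12 FPM and the LIDPAD libraries 36.8, 67.2, 49.2, 53.2 and 54.4 FPM (3.28 ± 0.18, adjusted p = 7.39e-06). Even the lowest LIDPAD library was several times above the highest control in both weeks. Its neighbour Ifi27l2a rose at weeks 12, 16, 32 and 48, by 0.98, 1.57, 2.02 and 1.51 on the log2 scale (adjusted p = 0.0239, 0.00242, 0.000174 and 0.0474). Per kilobase of exon, the level of Ifi27l2a in LIDPAD livers at week 32 was 17.1 ± 4.72 FPM and that of Ifi27l2b 47.7 ± 10.01 FPM (SD, n = 5).

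Bst2, the most abundant gene of the set per kilobase, rose at week 8 from 41.9 and 47.1 to 61.1 and 65.1 FPM (0.50 ± 0.11, adjusted p = 0.0470) and at week 16 from 61.9, 56.1 and 51.1 to 66.9, 68.9 and 79.4 FPM (0.35 ± 0.11, adjusted p = 0.0316). At week 32 its groups overlapped (0.13 ± 0.20, adjusted p = 0.675). Bst2, Igtp and Gbp6 are the 3 genes of the set that were called higher at an earlier week and not at week 32. The highest level of Bst2 in any library was 97.8 FPM, in week 48 control library 3.

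Of the remaining type I-like genes, Trim30a, a tripartite-motif protein, rose at weeks 8, 16 and 32, by 0.57, 0.84 and 1.37 on the log2 scale (adjusted p = 0.0496, 0.00370 and 0.000213). Its week 32 libraries had 8.16, 7.07, 9.90 and 10.9 FPM in control and 22.5, 28.7, 26.6, 20.7 and 21.04 FPM on LIDPAD, with no overlap. Ifi44, Xaf1, Rtp4 and Parp14 were called at week 32 only, with log2 changes of 1.44, 1.14, 0.84 and 0.64. Xaf1 binds an inhibitor of apoptosis, Rtp4 is a chaperone of membrane receptors, and Parp14 is an ADP-ribosyltransferase. Ifi35 lay between -0.11 and 0.28 in all weeks and was not called.

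Of the 5 guanylate-binding proteins Gbp2 and Gbp6 were called before week 16, Gbp3 and Gbp5 first at week 16 and Gbp7 in no week. Gbp2 was the only gene called in 6 weeks, all except week 4. At week 1 it had 3.32 and 2.67 FPM in control and 5.83 and 5.56 FPM in LIDPAD libraries (0.83 ± 0.15, adjusted p = 0.0467), at week 8 3.48 and 3.23 against 7.80 and 9.06 FPM (1.21 ± 0.15, adjusted p = 0.0105), and at week 12 4.09 and 2.99 against 7.02 and 7.68 FPM (0.97 ± 0.18, adjusted p = 0.00940). At week 16 it had 4.78, 4.09 and 4.66 against 8.22, 11.0 and 13.0 FPM (1.14 ± 0.17, adjusted p = 0.000648). At week 32 the controls had 3.14, 3.33, 2.55 and 5.49 FPM and the LIDPAD libraries 14.8, 12.3, 12.0, 11.8 and 11.7 FPM (1.70 ± 0.19, adjusted p = 0.000184). Week 48 had 3.65, 5.55 and 6.68 against 14.8, 10.2, 9.18 and 14.1 FPM (1.13 ± 0.23, adjusted p = 0.0255). In all 6 weeks every LIDPAD library was above every control library.

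Gbp6 rose at weeks 1, 8 and 12, from 13.8 and 12.7 to 21.9 and 20.4 FPM (0.65 ± 0.11, adjusted p = 0.0336), from 9.63 and 9.98 to 26.9 and 31.3 FPM (1.52 ± 0.12, adjusted p = 0.00303), and from 18.6 and 13.1 to 24.3 and 30.1 FPM (0.77 ± 0.18, adjusted p = 0.0211). It overlaps Gm43302, so these values may hold reads of both. At week 32 its controls ran from 4.98 to 18.7 FPM and its LIDPAD libraries from 13.9 to 37.4 FPM (1.23 ± 0.43, adjusted p = 0.0563). Gbp3 and Gbp5 rose at weeks 16 and 32: Gbp3 by 0.51 and 1.34 (adjusted p = 0.0405 and 0.00271) and Gbp5 by 0.71 and 1.01 (adjusted p = 0.0219 and 0.00515). Gbp7 had 0.47 ± 0.22 at week 32 (adjusted p = 0.135).

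Of the 5 immunity-related GTPases in the set, Igtp alone was called higher before week 32, at week 8, from 14.9 and 13.4 to 20.3 and 22.1 FPM (0.57 ± 0.12, adjusted p = 0.0432). At weeks 12, 16 and 48 all 5 had a log2 change below 0 as deposited; rescaled to the same total, Irgm1 was above 0 in all 3 weeks and Ifi47 at weeks 16 and 48. Iigp1, an effector GTPase that coats the vacuoles of parasites, had 292 and 237 FPM in control and 180 and 192 FPM in LIDPAD libraries at week 12 (-0.50 ± 0.13, adjusted p = 0.0304). At week 16 it had 312, 248 and 265 FPM in control and 147, 186 and 187 FPM on LIDPAD (-0.67 ± 0.12, adjusted p = 0.00233). The groups did not overlap in either week. Rescaled to the same total, Iigp1 stayed called at week 16 (-0.46, adjusted p = 0.00842) and not at week 12 (-0.30, adjusted p = 0.0878).

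Irgm2 was lower at week 16, with 49.6, 42.8 and 42.0 FPM in control and 21.4, 34.6 and 36.5 FPM in LIDPAD libraries (-0.57 ± 0.18, adjusted p = 0.0333), and was not called after rescaling (-0.36, adjusted p = 0.112). Irgm1, a regulator of the other members, was called in no week (-0.28 to 0.27). Ifi47 was the only one of these 5 to rise at week 32, from 10.6, 8.83, 10.8 and 16.8 to 26.5, 18.8, 22.3, 18.6 and 17.5 FPM (0.82 ± 0.19, adjusted p = 0.00895). At week 12 the same gene had 19.0 and 14.0 FPM in control and 11.0 and 11.0 FPM on LIDPAD, which was not called. Other immunity-related GTPases, outside the 37 genes, also rose at week 32, among them Tgtp1 (1.96, adjusted p = 0.00308), Tgtp2 (1.70, adjusted p = 0.00641) and Gm12250 (1.08, adjusted p = 0.00514).

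Compared as classes, type I-like and gamma-like genes had nearly the same median at weeks 1 and 8, and the type I-like median was the higher from week 12 on. The median log2 change was 0.33 for type I-like and 0.34 for gamma-like genes at week 1, -0.12 and 0.04 at week 4, and 0.36 and 0.38 at week 8. It was 0.19 and 0.03 at week 12, 0.32 and -0.01 at week 16, 1.15 and 0.57 at week 32, and 0.20 and -0.03 at week 48. The median over all tested genes lay between -0.01 and 0.04. The guanylate-binding proteins alone had medians of 0.34, 0.71, 1.23 and 0.42 at weeks 12, 16, 32 and 48, not below the type I-like medians. At week 32, 18 of 26 type I-like genes were higher and 1 lower, and 5 of 11 gamma-like genes were higher and 0 lower. These are descriptions of 2 lists, and the difference between the lists was not tested.

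Within the gamma-like class the 5 guanylate-binding proteins and the 5 immunity-related GTPases had different medians. Guanylate-binding proteins had medians of 0.54, 0.00, 0.71, 0.34, 0.71, 1.23 and 0.42 from week 1 to week 48. The corresponding medians of the 5 immunity-related GTPases were 0.24, 0.04, 0.29, -0.41, -0.44, 0.10 and -0.47. At weeks 12, 16, 32 and 48 the guanylate-binding median was thus higher by 0.76, 1.16, 1.12 and 0.89. Rescaling to the same total shifts both groups and left these gaps at 0.75, 1.12, 1.12 and 0.85. The gaps describe these 10 genes and not the 2 families, since the immunity-related genes outside the set given above rose at week 32, and 9930111J21Rik1 and 9930111J21Rik2 of the same family rose at weeks 12, 16, 32 and 48 (0.58, 1.09, 1.95 and 1.11 for the first).

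**Figure D4:**
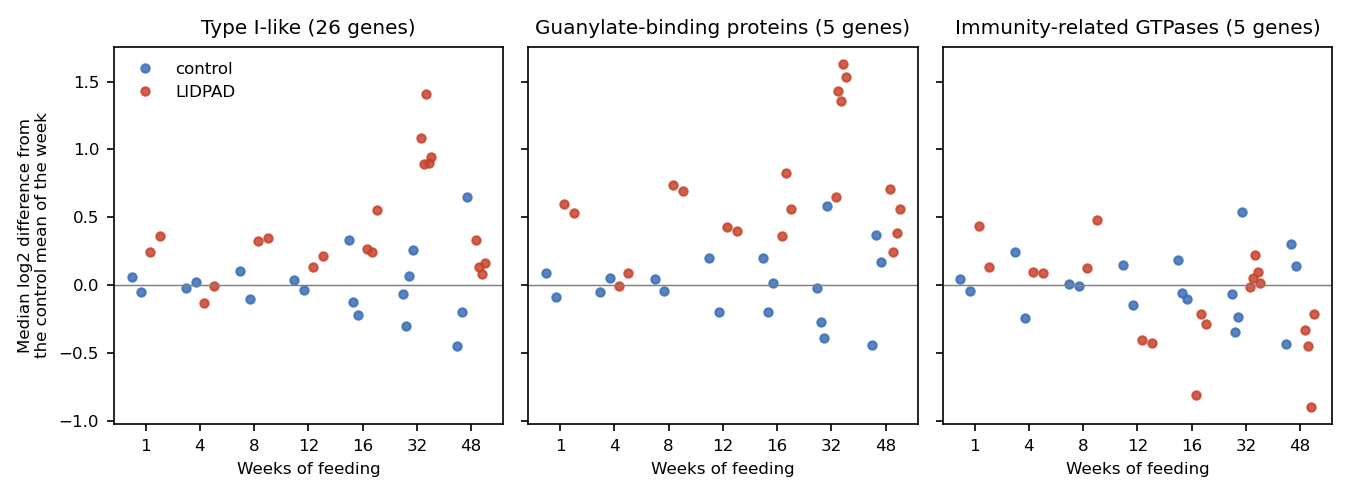
For each library (points), the median over a class of genes of log2(FPM + 0.5) minus the mean of that week's control libraries, for 26 type I-like genes, 5 guanylate-binding proteins and 5 immunity-related GTPases; control in blue, LIDPAD in red. At week 32 the LIDPAD libraries lie at 0.89 to 1.41 for type I-like genes and at -0.01 to 0.22 for immunity-related GTPases, where control library 4, at 0.54, lies above all of them.

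Members also varied together between libraries of the same group. After each group's mean was taken out, the median Pearson r over 38 libraries was 0.73 for the 10 pairs of immunity-related GTPases, 0.51 for the 325 pairs of type I-like genes and 0.46 for the 10 pairs of guanylate-binding proteins. Between classes it was 0.31 for type I-like with immunity-related, 0.28 for type I-like with guanylate-binding and 0.59 for guanylate-binding with immunity-related genes. The closest pairs were Ifit3 and Ifit3b (0.94), Ifit1 and Ifit3 (0.93) and Irgm1 and Iigp1 (0.90), while Stat2 had a median r of 0.02 with the other 25 type I-like genes. All these values share libraries and their depth, and the first pair shares sequence. Over all pairs of the 12330 genes tested in every week the median r was -0.0009. Without week 48 control library 3 the median was 0.35 for type I-like genes, 0.45 for guanylate-binding proteins, 0.74 for immunity-related GTPases and 0.12 for Stat2, so 1 library carried part of the type I-like value. Without all 3 libraries that stand apart these were 0.38, 0.67, 0.76 and 0.14 over 34 libraries, since a group left with 1 library drops out.

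Week 32 joined 2 sets of libraries that differ in how their reads divide among the 4 deposited columns. With set as a term, 24 genes were higher and 1 lower (20% and 10.8% of all genes, 30.7% in all). In the set of 3 control and 3 LIDPAD libraries 23 were higher and 1 lower (15.8% and 7.24% of all genes). In the set of 1 control and 2 LIDPAD libraries, 20 were higher and 6 lower (27% and 19.6%, 46.6% in all). There the lone control is assumed to vary like the LIDPAD pair, and with 1 residual degree of freedom the test rests almost wholly on a spread shared across genes, so its p-values are not printed. The lower genes there were Stat2, Mx2, Igtp, Irgm1, Irgm2 and Iigp1. Iigp1 had 440 FPM in that control, library 4, against 268, 220 and 237 FPM in the other controls, and log2 changes of -0.98 in the smaller set and -0.10 in the larger. In the larger and the smaller set, the log2 change was 3.17 and 3.55 for Ifi27l2b, 2.54 and 1.46 for Oasl2, and 1.56 and 0.11 for Rsad2. Zbp1 had 1.64 and 0.32 there, and Ifi47 1.12 and 0.10.

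At week 48 few genes passed, and 1 control library decided the count. Control library 3 lay above both other controls for 28 of the 37 genes, 24 of 26 type I-like and 4 of 11 gamma-like, beside 43.9% of all 14807 tested genes. For 24 of the 37, a count for which no share over all genes was taken, it lay above all 4 LIDPAD libraries. It did not lie above both other controls for Stat2, Irf1, Igtp, Irgm2 and Iigp1 of these 24. It had 61.3 FPM of Ifi27l2b, against 6.91 and 4.89 in the other controls and 50.8, 41.9, 42.0 and 44.9 on LIDPAD. Its levels of Mx1 (11.1 FPM), Rsad2 (20.8 FPM) and Parp14 (97.4 FPM) were the highest of all 38 libraries. Type I-like genes were above the mean of the other controls by a median of 0.97 on the log2 scale and gamma-like genes by 0.25, where the median of all genes was 0.03.

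**Figure D5:**
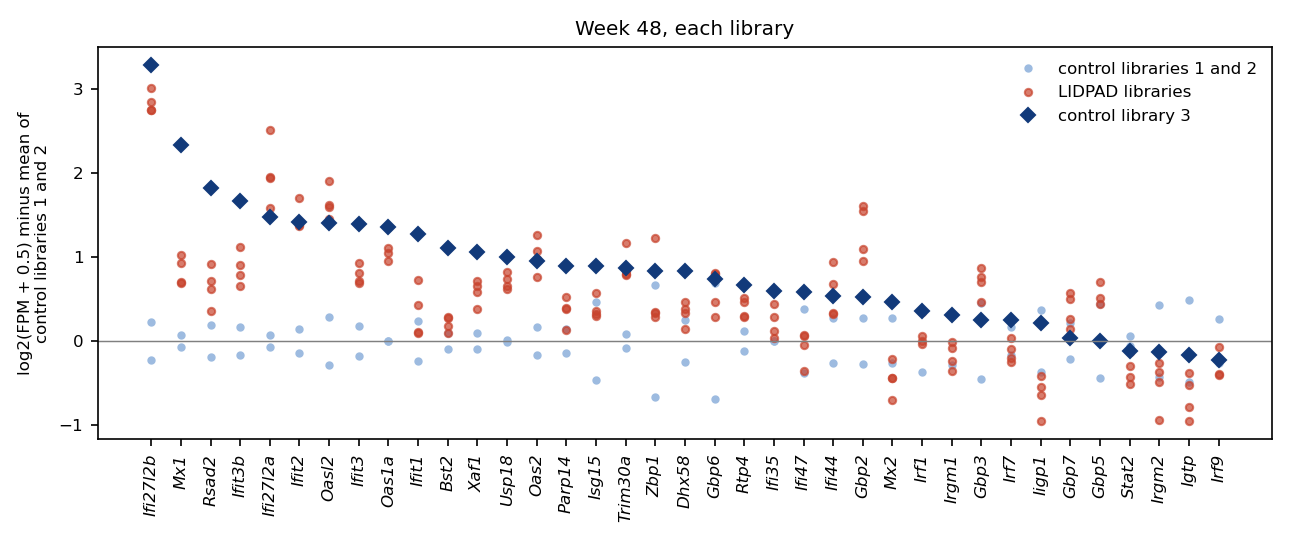
Week 48: log2(FPM + 0.5) of each gene in each library, minus the mean of control libraries 1 and 2, with genes ordered by control library 3 (dark diamonds); LIDPAD libraries in red, control libraries 1 and 2 in light blue. Control library 3 lies above all LIDPAD libraries for 24 of 37 genes, while Gbp2, Gbp3 and Ifi27l2a are higher in the LIDPAD libraries. No share over all genes was taken for this count. It includes Stat2, Irf1, Igtp, Irgm2 and Iigp1, for which control library 3 is not above both other controls.

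Without that library, 17 genes were higher and 3 lower at week 48, where 22.3% and 15.4% of all genes were, and all 17 were also higher at week 32. The lower ones were Igtp, Iigp1 and Stat2 (-0.67, -0.64 and -0.34, adjusted p = 0.0489, 0.0227 and 0.0323). The log2 change of Ifi27l2b was 2.84 ± 0.13 without and 1.74 with the library (adjusted p = 2.29e-07 without), and that of Ifit2 1.47 ± 0.13 (adjusted p = 1.65e-05). Type I-like and gamma-like medians were 0.58 and 0.09. The 2 calls of week 48, Gbp2 and Ifi27l2a, were both lost when any 1 of 5 other libraries was left out (control library 2 or any LIDPAD library), and 0 genes were higher and 1 lower without control library 1. The same library had 203 FPM of recruited macrophage markers, against 50.3 and 61.6 in the other controls and 438 to 558 on LIDPAD, and 55.5 FPM of the leukocyte gene Ptprc, against 20.8 and 27.0. Their part in the result was not tested.

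Whether the diet effect differed between the 7 weeks was asked in a joint limma fit. An F test called 10 of the 37 genes, beside 11.6% of all genes: Trim30a (adjusted p = 0.00975), Gbp2 (0.0122), Ifi27l2a (0.0131), Ifit2 (0.0152), Oas1a (0.0191), Ifi44 (0.0257), Ifi47 (0.0268), Xaf1 (0.0390), Gbp3 (0.0441) and Oasl2 (0.0459). The effect at weeks 32 and 48 minus that at weeks 1 and 4 was called higher for 10 genes and lower for 1 (13.4% and 6.42% of all genes). It was largest for Ifi27l2b (1.91 ± 0.62, adjusted p = 0.0282), Ifi27l2a (1.67 ± 0.37, adjusted p = 0.00233), Oasl2 (1.47 ± 0.38, adjusted p = 0.00706) and Ifit2 (1.42 ± 0.33, adjusted p = 0.00358). The lower one was Iigp1 (-0.65 ± 0.22, adjusted p = 0.0325). For the counts that follow, with 1 library left out, the shares of all genes were not taken. Without week 48 control library 3 this contrast was called higher for 16 genes and lower for 2, and Ifi27l2b had 2.46; without week 4 control library 2 it was called higher for 6 and lower for 0, and Ifi27l2b had 1.24. No gene was lower either without week 1 control library 1 or 2, week 1 LIDPAD library 1, week 4 LIDPAD library 2, week 48 control library 2 or week 48 LIDPAD library 3. The F test count fell to 5 without week 32 control library 1 or 2 and to 4 without week 4 control library 2 or LIDPAD library 2.

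Transcripts of the interferons themselves were near or below the limit of detection. Of 21 ligand genes, 15 had 0 reads in all 38 libraries, which over 1182 M reads allows up to 0.00254 reads per 1000000 (3 counts of the total), and up to 0.276 in the shallowest library. Ifnb1, interferon beta, had 2 reads in 1 library, and Ifng, interferon gamma, had a read in 10 of 38 libraries, up to 0.305 FPM. Ifnk had reads in 37 libraries, up to 1.69 FPM, and was tested at week 48 only, where it was not called (-0.18). These limits cover counting error only and treat reads as independent. Values of 2 reads were 5.35 times as frequent as values of 1 read, so the true limits may be higher.

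Among the receptors and kinases, both gamma receptor chains were called higher at week 32 and neither type I receptor chain was called in any week. Ifngr2 rose at weeks 12, 16 and 32 (log2 changes 0.87, 0.73 and 1.29) and Ifngr1 at week 32 (1.10). Il10rb, a chain of the interferon lambda receptor, rose as well (1.02, 0.91 and 1.51 at weeks 12, 16 and 32). The other chain, Ifnlr1, passed the filter on low values in no week. At week 32 its mean was 0 FPM in control and 0.842 FPM in LIDPAD libraries. At week 48 Ifngr1 and Ifngr2 had 0.55 and 0.67 and were not called (adjusted p = 0.162 and 0.294). Ifnar1 and Ifnar2 had 0.32 and 0.52 at week 32. The kinase Jak2 rose at week 32 (0.42). Stat3 was lower at weeks 12 and 16 (-0.54 and -0.49). Of 6 tested inhibitors Ptpn6, a phosphatase of blood cells, rose at weeks 8, 16, 32 and 48 (1.34 at week 32), and Irf2 was lower at week 16 (-0.51).

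Of 16 tested sensors and relays of nucleic acid, 8 were higher and 1 lower at week 32, and 4 and 2 at week 16. The shares over all genes were 18% and 8.82% at week 32 and 16.3% and 12% at week 16. The 2 lower genes of week 16 were thus at background. Tlr9, among the higher genes of both weeks, passed the filter through LIDPAD libraries alone and could only be called higher. It had at most 0.794 FPM in control at week 16 and 0.281 FPM at week 32. The endosomal receptor Tlr7 rose at weeks 8, 12, 16, 32 and 48 (1.04, 1.54, 1.61, 2.55 and 1.45), and so did the myeloid factor Irf8 (0.68, 0.76, 1.38, 1.62 and 1.25). Tmem173, which encodes STING, rose at weeks 12, 16 and 32 (0.87, 0.87 and 1.52), Tlr9 at weeks 16 and 32 (1.01 and 2.04) and Tlr3, Samhd1, Adar and Ddx58 at week 32 (1.43, 0.93, 0.56 and 0.41). Mavs, the mitochondrial relay of the RIG-I pathway, was lower at weeks 16 and 32 (-0.40 and -0.85), and Irf3 at week 16 (-0.31).

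Related genes outside the 37 were read from lists of other interferon-stimulated genes and other GTPases. Of 44 tested genes of the first list 22 were higher and 2 lower at week 16, 27 and 1 at week 32 and 12 and 1 at week 48, with medians of 0.37, 0.91 and 0.39. Over all genes 16.3% and 12%, 18% and 8.82%, and 6.54% and 3.34% were higher and lower in these weeks. The largest rises at week 32 were those of the Ifi200 family of DNA-binding proteins, Ifi209 (2.34), Ifi211 (2.08) and Ifi205 (1.90), and Gm4951, a relative of Iigp1, was lower at weeks 16, 32 and 48 (-0.57, -0.61 and -0.60). Of 15 other GTPases 11 were higher and 1 lower at week 32, beside the same 18% and 8.82%. Guanylate-binding genes among the higher ones were Gbp9 (1.88) and Gbp8 (1.85), and immunity-related ones Tgtp1, Tgtp2 and Gm12250, with 9930111J21Rik1 (1.95) and 9930111J21Rik2 (1.83). The lower one, F830016B08Rik, is of the immunity-related family too (-0.79).

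Markers of recruited macrophages were called higher in every week from week 8 on, also at week 48, where 2 of the 37 genes were. All 7 tested markers were higher at weeks 16 and 32 (16.3% and 18% of all genes). At weeks 8, 12 and 48, 6 of 7 were (3.85%, 8.99% and 6.54%). Some could only be called higher, since they passed the filter on low values through LIDPAD libraries alone. At week 16 these were Gpnmb, Trem2 and Mmp12, with at most 0.443, 0.698 and 0.300 FPM in control. The summed level of the 7 markers was 34.3 to 62.6 FPM in control and 244 to 352 FPM in LIDPAD libraries at week 16. At week 32 it was 38.3 to 73.8 and 350 to 1368 FPM. Ptprc, expressed by all leukocytes, had 13.3 to 17.0 FPM in control and 61.1 to 113 FPM in LIDPAD libraries at week 32. Plasmacytoid dendritic cells, the main makers of type I interferon, were followed by 5 genes, of which Ly6d drove the sum, with up to 156 FPM on LIDPAD at week 32. The more specific Siglech and Ccr9 stayed at or below 1.52 and 1.74 FPM on LIDPAD at week 32, and at or below 0.310 and 1.51 FPM in control. Markers of natural killer cells summed to 0.194 to 0.623 FPM in control and 1.62 to 5.65 FPM in LIDPAD libraries at week 32, and T cell markers to 1.96 to 2.22 and 4.23 to 10.4 FPM. The part of these cells in the result was not tested.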

How the data were processed

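The deposited signal, called FPM by the authors' tables, is a gene's read count scaled by its column's size factor and set per 1000000. There are 7 tables, 1 per week, of 54532 genes. The submitters' processing notes list HISAT2, featureCounts, DESeq2 and GRCm38; roles, versions, annotation and strand setting are not given in the sources used here. Values were whole multiples of 1 step per column (100% within 0.02 reads), which gave back the reads. A value of 2 reads was 5.35 times as frequent as 1 read.

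Columns were merged where their chi-square per gene was under 2.5, over genes with 200 to 2000 pooled reads: it was 1.98 to 2.27 inside the merged blocks and at least 2.65 outside them. Sampling noise here means that of read pairs, and single reads would give a smaller chi-square. The number of libraries rests on this reading. Column values of a library were averaged. Depth was 10.9 to 53.8 M reads per library, and its precision is limited most for genes of a few FPM.

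The 7 tables were fitted separately with limma 3.58.1 in R 4.3.3, on log2(FPM + 0.5), with eBayes moderation and trend, two-sided. A gene was tested if it reached 1 FPM in a number of libraries equal to the smaller group. Benjamini-Hochberg adjustment ran over all tested genes, and calls are at 0.05. With 2 libraries per diet, calls rest on a spread shared across genes. Differences on this log scale understate the change of low genes. All 14 groups were also fitted jointly, for the F test and the late-minus-early contrast. The limma step was tested on simulated data. Alternatives used edgeR 4.0.16 and DESeq2 1.42.0 on the reads, other pseudocounts, filters and scalings, a replicate block, and single libraries left out. The fits of separate week 32 sets, and correlations without the libraries that stand apart, were added after seeing the data.

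Gene positions and exon unions came from GENCODE for GRCm38, promoter windows from RefSeq for GRCm38.p6. Members, classes and lists were chosen with earlier results of these data known. Genes named are index members of each role, every called member, the 3 highest and 3 lowest of a week, and listed pathway genes if called or if ligands or receptors. Summaries and plots were made in Python 3.11.15 (pandas 2.3.3, numpy 2.4.6; matplotlib 3.10.9). One gene of the receptor and kinase list is not reported here.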

Additional observations from a re-analysis of the deposited data

Results flagged for a closer look

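In groups of 4 or 5 libraries, 111 sets of values were searched for a library far from the others, and 8 were found where chance gives about 1 in 20. At week 32 control library 3 had 5.46 FPM of Oas1a, and control library 4 had 11.7 FPM of Rsad2 and 1.89 FPM of Ifi27l2a, each above the other controls. In the same week LIDPAD library 1 had the highest Gbp2 (14.8 FPM) and the lowest Gbp3 (5.78 FPM) of its group, and both genes stayed called without it. At week 48 LIDPAD library 1 was the highest for Ifit2 (17.6 FPM), Zbp1 (9.74 FPM) and Trim30a (25.9 FPM).

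The diet effect differed between weeks by the F test for 10 genes, in limma's joint fit: Trim30a (adjusted p = 0.00975), Gbp2 (0.0122), Ifi27l2a (0.0131), Ifit2 (0.0152), Oas1a (0.0191), Ifi44 (0.0257), Ifi47 (0.0268), Xaf1 (0.0390), Gbp3 (0.0441) and Oasl2 (0.0459). For Ifi47, the log2 change was -0.55 at week 12 and 0.82 at week 32. The other 9 were highest at week 32.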

How the results depend on the processing

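The count of members called at week 16 (16) and week 32 (24) stayed within 1.5 times under every alternative. With single libraries left out it was 11 to 19 and 24 to 27. In the other weeks the count did not stay so close. Single calls were less stable, and 7 of 16 at week 16 and 17 of 24 at week 32 held under every alternative. Those of week 32 that did not were Gbp5, Ifi47, Irf1, Rsad2, Rtp4, Stat2 and Zbp1. Shares of all genes were not counted for most alternatives, so these counts describe the processing and not the set. Each deposited column taken as a sample gave 22, 3, 24, 21 and 19 calls at weeks 1, 4, 8, 12 and 48, against 2, 0, 8, 7 and 2. The joint fit gave 0, 0, 1 and 8 at weeks 1, 8, 12 and 48. No filter gave 1, 5, 3 and 1 there, and 4 in place of 10 for the F test. No mean-variance trend gave 0, 4 and 1 at weeks 1, 8 and 48, and edgeR 1 and 1 at weeks 1 and 48. A filter of 5 FPM gave 1 at week 1. At week 48 DESeq2 gave 5 and a pseudocount of 0.1 gave 1. Rescaling gave 1 at week 1 and 5 at week 48.

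The replicate block gave 5 calls at week 8 and 0 at week 48, and 2, 0, 10, 14 and 24 at weeks 1, 4, 12, 16 and 32. Same-numbered libraries share only a number, since their deviations correlated by -0.116 to 0.123.

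With single libraries left out the counts ran from 0 to 11 (week 1), 0 to 1 (week 4, 1 without control library 1), 1 to 10 (week 8), 2 to 12 (week 12) and 0 to 20 (week 48), and from 4 to 14 for the F test, which had 6 without week 32 LIDPAD library 3. Type I-like medians ran from 0.25 to 0.36, -0.13 to -0.0047, 0.21 to 0.39 and 0.12 to 0.21 at weeks 1, 4, 8 and 12, and gamma-like medians from 0.29 to 0.54 and 0.36 to 0.48 at weeks 1 and 8. Rescaling put the type I-like median at 0.46, 0.37 and 1.43 and the gamma-like median at 0.49, 0.22 and 0.87 at weeks 8, 12 and 32. Over single genes and alternatives, 973 calls stayed, 132 were lost and 0 changed direction. The cause was not tested. Depth limits the genes of few FPM, such as Gbp5 and Isg15.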
